A study of Mus musculus with 8 samples.

Results

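The genes described here are the main transcription factors of the red-cell lineage (Gata1, Klf1, Tal1, Nfe2 and Gfi1b), the erythropoietin receptor Epor with the survival gene Bcl2l1, and 3 genes of reticulocyte maturation (Bnip3l, Ube2o and Trim58). They were taken by symbol from a table of read counts, in which they are 10 of 21878 genes. The table holds RNA-seq counts from the peripheral blood of 4 control and 4 stress mice, with 1 library per mouse. All were wild-type female C57BL/6 mice aged 6 to 8 weeks. The stress mice spent 6 hours restrained in a ventilated tube, and the control mice were littermates that stayed in their cage over the same time. Neither group had food or water, so a shared effect of fasting is in both. The RNA came from whole blood with no sorting of cells, and bone marrow, where red cells are made, was not measured.

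Red cells arise in the bone marrow from progenitors that need erythropoietin. GATA1 with its partners switches on the globin, heme and membrane genes, KLF1 acts on the same genes through CACCC sequences, and TAL1 binds E-boxes beside GATA sites. After the nucleus is expelled, the reticulocyte enters the blood with the RNA it already holds, and over the next days it clears its mitochondria, ribosomes and unneeded proteins. BNIP3L takes part in the first of these steps and UBE2O in the last. GATA1, TAL1, NFE2 and GFI1B are also used by megakaryocytes, and platelets carry megakaryocyte RNA into the blood, so a read from one of these genes in whole blood does not name its cell of origin.

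All 10 genes were found in the GENCODE M21 annotation of GRCm38, and none of their exons overlapped an exon of another gene. Gata1 lies at chrX:7959260-7978071 on the minus strand, Klf1 at chr8:84901928-84905291 on the plus strand and Tal1 at chr4:115056426-115071755 on the plus strand. Nfe2 lies at chr15:103248212-103258403, Gfi1b at chr2:28609450-28621982, Epor at chr9:21958897-21963506 and Bcl2l1 at chr2:152780668-152831728, all on the minus strand. Of the maturation genes, Bnip3l lies at chr14:66985239-67008877 and Ube2o at chr11:116537740-116581447, both on the minus strand, and Trim58 at chr11:58640465-58652404 on the plus strand. All are protein-coding. The annotation also holds Bnip3l-ps, a transcribed processed pseudogene, so some Bnip3l reads may belong to either copy and its level is uncertain. Several Bcl2l1 products with opposite roles in cell death come from 1 gene, and counts per gene cannot separate them.

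Promoters are shown because these genes act on one another, and a reader can see in them the sequences that the encoded factors are known to bind. RefSeq promoters of GRCm38.p6, from 250 bases before to 50 bases after a start site, were matched for 7 of the 10 genes (10 promoters). The runs printed here are the 250 bases before the start site, read 5′ to 3′ on the gene's own strand. Capitals mark GATA motifs (AGATAA or TGATAA or AGATAG or TGATAG) and CACCC motifs (CCACACCC or CCNCNCCC, which also takes in GC boxes), searched on both strands. The Gata1 run is chrX:7967911-7968160 (minus strand), the Tal1 run chr4:115056176-115056425 (plus), the Gfi1b run chr2:28621983-28622232 (minus), the Klf1 run chr8:84901732-84901981 (plus) and the Epor run chr9:21963577-21963826 (minus).
Gata1: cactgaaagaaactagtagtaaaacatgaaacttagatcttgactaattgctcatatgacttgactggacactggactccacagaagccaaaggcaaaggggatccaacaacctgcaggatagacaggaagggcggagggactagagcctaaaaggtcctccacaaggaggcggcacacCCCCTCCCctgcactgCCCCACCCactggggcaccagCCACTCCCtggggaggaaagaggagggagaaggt
Tal1: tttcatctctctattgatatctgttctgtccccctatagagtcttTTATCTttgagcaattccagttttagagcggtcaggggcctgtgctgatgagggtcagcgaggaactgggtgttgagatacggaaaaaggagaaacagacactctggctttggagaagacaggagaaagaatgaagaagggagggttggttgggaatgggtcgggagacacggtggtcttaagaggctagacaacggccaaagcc
Gfi1b: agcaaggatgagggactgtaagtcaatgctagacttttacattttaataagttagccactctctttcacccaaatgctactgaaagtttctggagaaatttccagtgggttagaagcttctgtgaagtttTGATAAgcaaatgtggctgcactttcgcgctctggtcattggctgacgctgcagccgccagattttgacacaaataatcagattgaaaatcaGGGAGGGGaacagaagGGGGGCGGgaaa
Klf1: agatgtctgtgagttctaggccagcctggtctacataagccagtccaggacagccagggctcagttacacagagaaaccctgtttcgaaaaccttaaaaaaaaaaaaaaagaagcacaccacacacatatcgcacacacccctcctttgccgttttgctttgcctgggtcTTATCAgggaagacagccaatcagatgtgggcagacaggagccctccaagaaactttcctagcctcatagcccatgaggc
Epor: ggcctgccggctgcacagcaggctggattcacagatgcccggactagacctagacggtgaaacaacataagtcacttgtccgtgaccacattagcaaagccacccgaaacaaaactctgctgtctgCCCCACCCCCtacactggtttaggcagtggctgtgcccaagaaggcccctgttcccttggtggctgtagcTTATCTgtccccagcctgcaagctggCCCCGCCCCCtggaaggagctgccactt

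Over the full 300 bases, a GATA motif was found in 6 of the 10 promoters, belonging to 6 of the 7 genes, and in 29.8% of all 32851 promoters in the table. Gata1 was the gene without one, and its promoter held 3 CACCC matches. The CACCC motif was found in 5 of the 10 promoters and in 49.5% of all promoters. An E-box of the form CAGATG or CATCTG was found in 4 of the 10 promoters against 17.2% of all, and the NF-E2 motif in 0 of the 10 against 0.4%. In Epor the GATA motif began 54 bases before the start site, in Klf1 80 bases, in Gfi1b 120 bases and in the printed Tal1 run 205 bases. Another Tal1 promoter, not printed, held 0 GATA and 4 CACCC matches. The Epor start site used lies outside the GENCODE bounds of the gene given above. For Epor and the printed Tal1 promoter, the end of the window was not found as an unbroken run in a GENCODE transcript. A match is a stretch of letters in this window, and binding was not measured.

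Between 31471145 and 39014775 reads were counted per control library and between 25978683 and 29655725 per stress library. The share of reads from haemoglobin genes was 58.5% ± 5.17 in the control mice and 68.4% ± 6.06 in the stress mice (SD, n = 4 each). Its ranges overlapped, 51.9% to 63.8% and 61.2% to 75.5% (two-sided exact permutation test, p = 0.0571). When so few genes take most of the reads, the other genes share the remainder. The way libraries are scaled to each other sets the size of each change. The part of haemoglobin in the differences between scales was not tested. Trimmed-mean (TMM) scaling, which sets the typical gene to no change, was used for the values below unless another scale is named. Over the 11718 tested genes the median log2 fold change came to -0.02 on the TMM scale and to -0.82 on total counts alone. Values are counts per 1000000 on the scale named, written as CPM.

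Of the 10 genes, 9 had the 10 counts in at least 4 libraries needed for a test, and Klf1 did not. On the TMM scale 6 of the 9 were higher in the stress group at an adjusted p below 0.05, and none was lower, by the quasi-likelihood test in edgeR and the Benjamini-Hochberg method. Over all tested genes 14.1% passed in either direction, 10.4% as higher and 3.69% as lower. All 9 had a log2 fold change above 0, as had 47.1% of all tested genes, and their median was 1.01. With the study's own thresholds, a log2 fold change beyond 1 and an adjusted p below 0.01, Gfi1b alone passed, against 1.71% of all tested genes. That count was 3 with DESeq2 and 3 with limma-voom, and without 1 mouse it ran from 0 (control mouse 2 or 3) over 2 (stress mouse 2) to 5 (control mouse 4). Gfi1b itself still passed these thresholds without control mouse 4 (edgeR, adjusted p = 0.00735). Without any other single mouse it did not, with an adjusted p of 0.0116 to 0.0393. In 6 of the 10 genes every stress library lay above every control library, which held for 11.1% of all tested genes. These 6 were Gata1, Tal1, Nfe2, Gfi1b, Epor and Bcl2l1, the same genes that passed the test. The increase was seen on the TMM scale, whereas on total counts and on scales set by red-cell or platelet genes 0 of the 9 passed, and some turned negative. In whole blood, fewer cells of a type and less RNA per cell cannot be told apart.

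**Figure D1:**
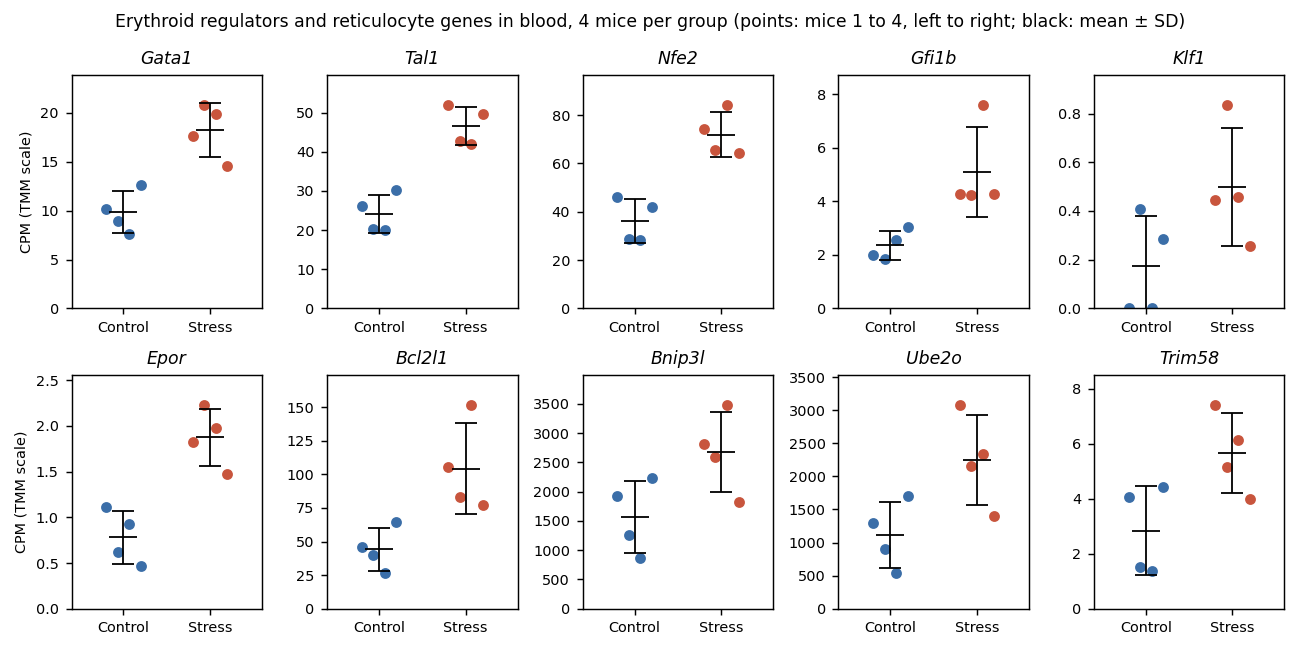
CPM on the TMM scale (vertical axes, linear from 0) in the 4 control and 4 stress mice for each of the 10 genes, with points for single mice and black bars for the mean ± SD. Stress points sit above all control points for Gata1, Tal1, Nfe2, Gfi1b, Epor and Bcl2l1, and overlap them for Klf1, Bnip3l, Ube2o and Trim58.

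Among the transcription factors, Gata1, the founding GATA factor of the red-cell and platelet lineages, was at 10.2, 8.98, 7.60 and 12.6 CPM in control mice 1 to 4. It was at 17.7, 20.8, 19.9 and 14.6 CPM in stress mice 1 to 4. The lowest stress value was above the highest control value, and the group means were 9.85 ± 2.14 and 18.2 ± 2.75 CPM (SD, n = 4). This was a log2 fold change of 0.89 with an SE of 0.16 (edgeR, adjusted p = 0.00319).

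Tal1, a basic helix-loop-helix factor that stands with GATA1 in one complex, was at 26.2, 20.4, 19.95 and 30.2 CPM in the control mice. The stress mice had 51.9, 42.8, 42.0 and 49.6 CPM, and the groups were well apart. Its log2 fold change of 0.95 had the smallest SE of the 9 genes, 0.14 (edgeR, adjusted p = 0.00132). Nfe2, the leucine-zipper factor that drives globin expression and platelet release, was at 46.0, 28.9, 28.2 and 41.9 CPM in the control mice and 74.1, 65.4, 84.2 and 64.2 CPM in the stress mice. Control mice 1 and 4 were the high ones of their group for Tal1 and Nfe2 alike. The log2 fold change of Nfe2 was 0.99 (SE 0.16, edgeR, adjusted p = 0.00242).

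Gfi1b, a repressor needed to complete red-cell and megakaryocyte development, was at 1.98, 1.84, 2.56 and 3.03 CPM in the control mice. In the stress mice it was at 4.28, 4.22, 7.59 and 4.29 CPM, so that mouse 3 stood far above the other stress mice, which were almost equal. The log2 fold change was 1.10 with an SE of 0.23 (edgeR, adjusted p = 0.00872), and without stress mouse 3 it was 0.88 (adjusted p = 0.0134).

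Klf1, an activator of the adult beta-globin gene in erythroblasts, was at the limit of counting. It had 0, 21, 0 and 9 counts in the control libraries and 10, 18, 6 and 8 in the stress libraries, 30 against 42 counts in all. A count of 0 allows up to 3 counts at these depths, a limit that covers counting error only. Without the filter on low counts its log2 fold change was 1.53 with an SE of 0.95 (edgeR, adjusted p = 0.348), so no difference could be detected with so few reads. The other 4 factors had at least 73 counts in every library.

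Epor, which binds erythropoietin on red-cell progenitors, was also scarce, at 15 to 64 counts per library. In the control mice it was at 1.11, 0.619, 0.925 and 0.473 CPM, and in the stress mice at 1.83, 2.23, 1.97 and 1.47 CPM. The groups did not overlap, and the log2 fold change was 1.24 (SE 0.31, edgeR, adjusted p = 0.0198). This call was lost without control mouse 2 (adjusted p = 0.0722) or stress mouse 2 (adjusted p = 0.0523).

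Bcl2l1 encodes BCL-XL, the protein that keeps late erythroblasts and platelets alive. It was at 45.9, 40.0, 26.2 and 64.4 CPM in the control mice. The stress mice were at 105, 83.3, 151 and 76.9 CPM, with mouse 3 the highest. The log2 fold change was 1.24 (SE 0.27, edgeR, adjusted p = 0.0110), and without stress mouse 3 it was 1.02 (adjusted p = 0.0736).

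All 3 maturation genes had overlapping groups. Bnip3l, the mitochondrial receptor for mitophagy, was at 1926, 1264, 868 and 2225 CPM in the control mice and 2805, 2593, 3472 and 1828 CPM in the stress mice. Ube2o, a hybrid E2 and E3 ubiquitin enzyme that clears ribosomal proteins, was at 1291, 907, 542 and 1708 CPM and at 3072, 2160.1, 2336 and 1407 CPM. Stress mouse 4 lay below control mouse 4 for both genes. Trim58, a ubiquitin ligase that acts on dynein as the nucleus leaves, was at 4.07, 1.51, 1.37 and 4.41 CPM in the control mice and 7.40, 5.15, 6.15 and 4.001 CPM in the stress mice.

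Their log2 fold changes were 0.77 for Bnip3l (SE 0.32, edgeR, adjusted p = 0.120), 1.01 for Ube2o (SE 0.34, adjusted p = 0.0654) and 1.03 for Trim58 (SE 0.37, adjusted p = 0.0852). None of the 3 passed the edgeR test, while all 3 had an unadjusted p below 0.05. With DESeq2 2 of the 3 passed, Bnip3l (adjusted p = 0.0336) and Trim58 (adjusted p = 0.0498), and with limma-voom Ube2o (adjusted p = 0.0469) and Trim58 (adjusted p = 0.0293). Their fold changes were of the same size as those of the factors. From the lowest to the highest control mouse Ube2o varied 3.15-fold, Trim58 3.22-fold and Bnip3l 2.56-fold, against 2.45-fold for Bcl2l1, 2.35-fold for Epor, 1.66-fold for Gata1 and 1.51-fold for Tal1, and Klf1 had control mice at 0 counts. Whether the maturation genes responded differently from the factors was not tested.

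The order of the levels was read per length, as TMM CPM per kilobase of exon (RPKM). In the control mice Bnip3l was highest with 407 ± 160 RPKM (SD, n = 4), and Ube2o followed with 210 ± 94.8, the ranges overlapping. A wide gap came next: Ube2o was 17.3-fold above Nfe2 (12.1 ± 3.02), with no overlap. Nfe2, Bcl2l1 (9.62 ± 3.45), Tal1 (5.52 ± 1.12) and Gata1 (4.04 ± 0.878) each overlapped the next in the control mice. Gata1 was 3.12-fold above Trim58 (1.30 ± 0.742) with no overlap, and Trim58 could not be told from Gfi1b (1.28 ± 0.299). Gfi1b lay 3.27-fold above Epor (0.393 ± 0.146), whose range overlapped that of Klf1 (0.113 ± 0.134). In the stress mice the order of means was the same except that Gfi1b (2.78 ± 0.909 RPKM) and Trim58 (2.59 ± 0.660) changed places within their overlap.

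**Figure D2:**
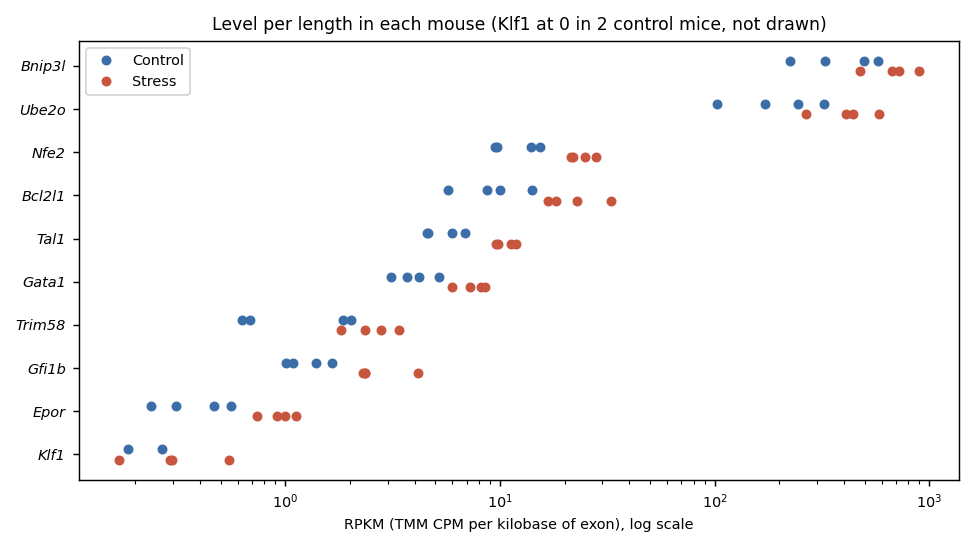
Level per length in each mouse (horizontal axis, RPKM on a log scale) for the 10 genes ordered by their control mean, with blue points for control and red points for stress mice. Bnip3l and Ube2o sit far to the right of the other genes, and the 2 control mice with 0 counts of Klf1 are not drawn.

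Scaling by total counts, which uses no assumption about the typical gene, left all 9 log2 fold changes above 0 but small. Gata1 was then at 0.11, Tal1 at 0.23, Nfe2 at 0.22 and Gfi1b at 0.25. Epor was at 0.39, Bcl2l1 at 0.45, Bnip3l at 0.00, Ube2o at 0.29 and Trim58 at 0.31. The 95% interval of each included 0, from -0.55 to 0.77 for Gata1 and from -0.39 to 0.40 for Bnip3l. At an adjusted p below 0.05 in edgeR 0 of the 9 passed, where 0.444% of all tested genes passed as higher and 49.6% as lower. At an unadjusted p below 0.05 it was also 0 of the 9. Above 0 were 9.98% of all tested genes. The stress libraries were no longer apart from the control libraries for any of the 10 genes, against 0.247% of all tested genes with every stress library on top. Gata1 ranged from 11.9 to 13.5 CPM of total counts in the control mice and from 10.1 to 16.1 CPM in the stress mice.

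Stress mouse 3 was the lowest of all 8 on total counts for Gata1 (10.1 CPM) and Tal1 (21.3 CPM), while with TMM its Gata1 was the second highest of the stress mice and its Tal1 the lowest of them. This library had the highest haemoglobin share, 75.5%, and the lowest TMM factor, 0.507, and the part of these in its values was not tested.

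To set the genes against the red-cell RNA of the same library, libraries were also scaled by 16 genes of red-cell membrane, heme and maturation, among them Slc4a1 and Alas2. On this scale Gata1 was at a log2 fold change of -0.18, Tal1 at -0.10, Nfe2 and Gfi1b at -0.08, and Bnip3l at -0.21. Epor was at 0.01, Bcl2l1 at 0.22, Ube2o at 0.06 and Trim58 at 0.11. The intervals were wide, from -1.17 to 0.82 for Gata1, so a change of up to that size in either direction was within the error. At an adjusted p below 0.05 in edgeR 0 of the 9 genes passed, while 0.0768% of all tested genes passed as higher and 49.8% as lower, and unadjusted it was also 0 of the 9. Above 0 were 4 of the 9 and 3.85% of all tested genes, and in 0 of the 10 genes, against 0.0683% of all tested, did every stress library exceed every control library. Scaling by 20 platelet genes in the same way gave -0.10 for Gata1, -0.03 for Tal1, 0.01 for Nfe2, 0.08 for Gfi1b, 0.21 for Epor and 0.26 for Bcl2l1. Bnip3l was at -0.18, Ube2o at 0.08 and Trim58 at 0.11. Again 0 of the 9 passed at an adjusted p below 0.05, where 0.401% of all tested genes passed as higher and 79.6% as lower, and unadjusted it was also 0 of the 9. Above 0 were 4.95% of all tested genes. No gene had every stress library on top, against 0.230% of all tested genes.

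**Figure D3:**
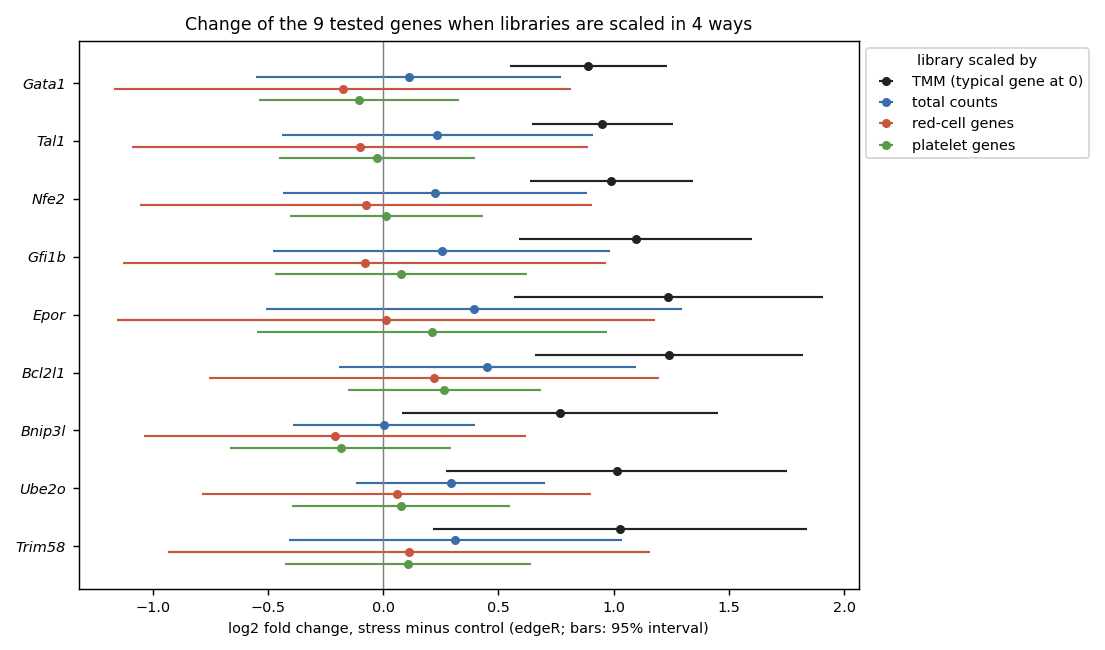
Log2 fold change of stress over control (horizontal axis) with its 95% interval from edgeR for the 9 tested genes, with libraries scaled by TMM, total counts, red-cell genes or platelet genes. Intervals lie wholly above 0 on the TMM scale and include 0 on the other scales for each of the 9 genes.

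Across the 8 libraries the genes differed in whether they stayed closer to summed platelet markers or to summed red-cell genes. For each gene the log2 ratio to the summed platelet markers and to the summed red-cell genes was taken in every library, and the SD of that ratio over the 8 libraries was compared. Nfe2 kept closest to the platelet sum with an SD of 0.11, against 0.32 to the red-cell sum. Gata1 had 0.14 and 0.32, Tal1 0.19 and 0.44, Gfi1b 0.34 and 0.48, and Epor 0.49 and 0.74. Bnip3l had the reverse, 0.31 to the platelet sum and 0.09 to the red-cell sum. The same held for Ube2o (0.42 and 0.25), Trim58 (0.46 and 0.32) and Bcl2l1 (0.35 and 0.26). Alas2 alone made up 94.5% to 96.7% of the red-cell sum in each library, so that closeness to this sum is closeness to 1 gene. Against the other 15 red-cell genes Bnip3l had an SD of 0.24, Ube2o 0.12, Trim58 0.24 and Bcl2l1 0.33, and Nfe2 had 0.41, Gata1 0.43, Tal1 0.47, Gfi1b 0.63 and Epor 0.83. No gene of the platelet list held more than 28.0% of the platelet sum in a library. With either red-cell sum 5 genes varied less beside the platelet markers, 4 of them the factors and the fifth Epor. The other 4 varied less beside the red-cell genes, though Bcl2l1 was nearly even without Alas2 (0.33 against 0.35 to the platelet sum). Beside the summed neutrophil markers the SD was 0.26 for Tal1, 0.31 for Nfe2, 0.37 for Gata1, 0.49 for Gfi1b and 0.64 for Epor. These SDs were above those to the platelet sum, and for Tal1, Nfe2 and Epor below those to the full red-cell sum. The other 4 genes had 0.40 to 0.55 beside the neutrophil markers, above both. This is a description over 8 libraries that share depth and scaling, and a difference between the genes was not tested.

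**Figure D4:**
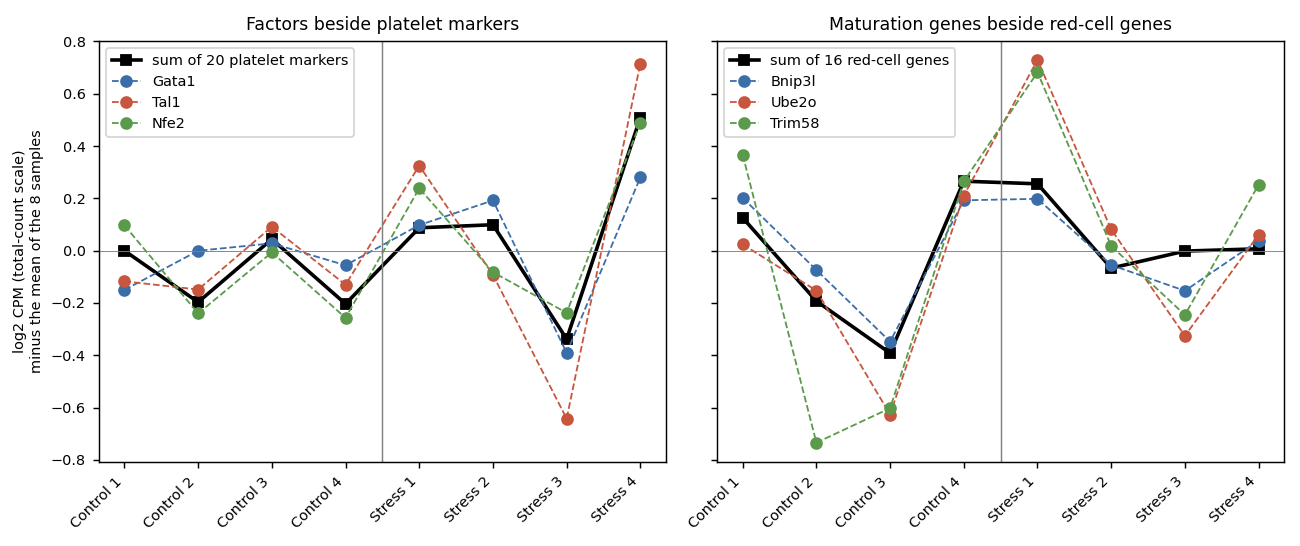
Log2 CPM on the total-count scale minus the mean of the 8 samples (vertical axis) in each sample (horizontal axis), with Gata1, Tal1 and Nfe2 beside the sum of 20 platelet markers on the left, and Bnip3l, Ube2o and Trim58 beside the sum of 16 red-cell genes on the right. The factors dip with the platelet sum in stress mouse 3 and peak with it in stress mouse 4, while the maturation genes are low with the red-cell sum in control mouse 3.

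Among genes with a mean of at least 5 CPM, the gene most like each member by Pearson correlation of log2 TMM CPM over the 8 libraries was Gp1bb for Gata1 (r = 0.988) and Gp1ba for Tal1 (r = 0.996). Both encode parts of the platelet receptor for von Willebrand factor. For Nfe2 it was Cela1 and for Bcl2l1 the kinase gene Pim1 (r = 0.997 each), for Gfi1b Flot1 (r = 0.982) and for Epor Bcas3 (r = 0.974). For Bnip3l it was Adipor1 (r = 0.999), for Ube2o Wdr26, a subunit of a ubiquitin ligase complex (r = 0.997), and for Trim58 Abhd5 (r = 0.990). The 5 genes most like the mean of the members were Lhfp, Esam, Abtb1, Rnf115 and Sdcbp (r from 0.991 to 0.995, 7145 candidates). The 8 libraries share depth and scaling, so these values describe likeness only. Between members, r ran from 0.56 for Epor with Bnip3l and with Ube2o to 0.96 for Ube2o with Trim58 and with Bnip3l.

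Markers of other blood cells moved with the groups as well. All 20 platelet markers passed as higher on the TMM scale (median log2 fold change 0.99), and their sum was 2745 to 4076 CPM in the control mice and 6107 to 7367 CPM in the stress mice (two-sided exact permutation test, p = 0.0286, as low as 4 against 4 can reach). P2ry12, the platelet ADP receptor, was at 99.7 ± 15.1 and 195 ± 6.69 CPM (SD, n = 4). On total counts the platelet sum was 4101 to 4869 CPM in the control mice and 3736 to 6721 CPM in the stress mice (exact permutation test, p = 0.429), and 0 of the 20 passed in edgeR, also unadjusted. Of the red-cell genes that set the red-cell scale, 15 could be tested, and all 15 had positive TMM log2 fold changes with a median of 0.99. Yet 0 of the 15 passed in edgeR at an adjusted p below 0.05, against 11 unadjusted, 3 with DESeq2 and 7 with limma-voom, and the median SE was 0.36 against 0.18 for the platelet markers. The summed red-cell genes, nearly all Alas2, were at 9173 to 25514 CPM in the control mice and 19498 to 42053 CPM in the stress mice (exact permutation test, p = 0.0857). Myeloid markers were higher too, 11 of 15 for neutrophils and 7 of 12 for monocytes, while 7 of 12 B-cell markers were lower, 0 of 12 T-cell markers passed (0 also unadjusted) and 1 of 10 NK-cell markers was lower. On total counts 6 of the 15 neutrophil markers were higher, and the monocyte markers split into 4 higher and 2 lower. On that scale 12 of 12 B-cell, 10 of 12 T-cell and 8 of 10 NK-cell markers were lower. Of all tested genes 0.444% passed as higher and 49.6% as lower on total counts, and 10.4% and 3.69% with TMM. The part of these cell types in the values of the 10 genes was not tested.

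A list of 13 genes that mark earlier red-cell stages gave 1 gene that passed as higher on the TMM scale, Gata2, and 0 as lower. Of all tested genes 10.4% passed as higher and 3.69% as lower. With TMM 8 of the 13 had a log2 fold change above 0 and 5 below (median 0.06), and unadjusted 5 were higher and 1 lower. On total counts 0 passed as higher, also unadjusted, and 4 as lower, where 49.6% of all tested genes were lower. The summed list was at 143 ± 43.8 CPM in the control mice and 232 ± 54.5 CPM in the stress mice on the TMM scale (SD, n = 4, exact permutation test, p = 0.0571). Some of its members were scarce: the stem-cell factor receptor Kit had 2 to 52 counts per library and Cd34 5 to 33. Tfrc, the transferrin receptor that erythroblasts and young reticulocytes carry, was at 14.9 ± 1.14 and 12.9 ± 0.825 CPM (SD, n = 4) and had a log2 fold change of -0.21 (edgeR, adjusted p = 0.1796). Kit and Cd34 were thus counted as rarely as Klf1 and Epor.

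The partners of the factors moved little as a list. Of 20 tested cofactors and relatives, 3 rose on the TMM scale, where 10.4% of all tested genes did, 1 fell and 16 did not pass, and their median log2 fold change was 0.09. Gata2, the GATA factor of stem cells, mast cells and early megakaryocytes, went from 6.31 ± 0.257 to 13.1 ± 2.69 CPM (SD, n = 4), which was 1.05 on the log2 scale (edgeR, adjusted p = 0.00107). Zfpm1, which encodes the GATA1 cofactor FOG1, rose by 0.58 on the log2 scale (adjusted p = 0.00970), and Mafg, whose protein pairs with NFE2, by 0.59 (adjusted p = 0.0158). Bcl11a, the repressor of fetal globin that B cells also use, fell by 0.58 (adjusted p = 0.0344). E2f2, with the most reads of the list, was at 79.4 ± 30.9 and 123 ± 35.6 CPM and did not pass (adjusted p = 0.146). Without control mouse 2 or 3 the count was 2. On total counts 0 of the 20 passed as higher, also unadjusted, and 9 as lower, where 49.6% of all tested genes were lower.

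In erythropoietin signalling, 4 of 15 tested genes rose on the TMM scale, where 10.4% of all tested genes did, and none fell, with a median of 0.32. On total counts 0 of the 15 passed as higher, also unadjusted, and 4 as lower (median -0.43, and 49.6% of all tested genes were lower). On the platelet scale 10 passed as lower, where 79.6% of all tested genes were lower. The kinase gene Lyn rose by 0.49 on the log2 scale (edgeR, adjusted p = 0.0124), Pim1 by 0.68 (adjusted p = 0.0151) and the adaptor gene Gab1 by 1.06 (adjusted p = 0.0162), and Socs3, a feedback inhibitor, by 0.51 (adjusted p = 0.0322). The hormone gene Epo had 0 counts in all 8 libraries, and Tfr2 was too low to test. Ptpn6, the phosphatase that ends the receptor's signal and had the most reads of the list, was at 124 ± 5.92 and 121 ± 19.3 CPM (SD, n = 4). With all 8 libraries 8 of the 15 had an unadjusted p below 0.05, and without control mouse 2 the count at the adjusted threshold was 0.

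Among the relatives of Bcl2l1, 2 of 13 tested genes rose, a share near the 10.4% of all tested genes, and the median was 0.18. These were Bid, a death-promoting member that rose by 0.58 (edgeR, adjusted p = 0.00517), and Bbc3, another, by 0.58 (adjusted p = 0.0469). Mcl1, a survival gene with the most reads of the family, was at 181 ± 11.1 and 215 ± 17.2 CPM (SD, n = 4) and did not pass (adjusted p = 0.197). Bcl2l1 had a larger log2 fold change than any of the 13, the highest of which was 0.58. Without control mouse 1, 2 or 3 or stress mouse 3 the count was 1, and so it was with limma-voom. On total counts 0 of the 13 passed as higher, also unadjusted, and 3 as lower, against 49.6% of all tested genes that were lower.

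Genes of mitophagy and autophagy, the process in which Bnip3l acts, gave 9 of 16 higher and none lower on the TMM scale, with a median of 0.77, equal to the log2 fold change of Bnip3l itself. Of all tested genes 10.4% were higher. On total counts 0 of the 16 passed as higher, also unadjusted, and 1 as lower (median -0.03), where 49.6% of all tested genes were lower. On the platelet scale 0 passed as higher and 5 as lower, where 79.6% of all tested genes were lower. Gabarapl1, of the ATG8 family that BNIP3L binds, rose by 0.69 on the log2 scale (edgeR, adjusted p = 0.00438), Atg7 by 0.51 (adjusted p = 0.0110) and the cargo receptor gene Sqstm1 by 0.57 (adjusted p = 0.0244). Gabarapl2, with the most reads, was at 345 ± 136 and 702 ± 274 CPM (SD, n = 4) and did not pass (adjusted p = 0.0532). Bnip3, the close relative of Bnip3l, had 38 to 136 counts per library and a log2 fold change of 0.10 (adjusted p = 0.825). The count was 1 without control mouse 2, 2 without control mouse 3, and 3 without stress mouse 1 or 2. It was 5 without control mouse 1 or stress mouse 3, and 11 without control mouse 4 or stress mouse 4.

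Of 20 ubiquitin genes known from reticulocytes, 3 rose on the TMM scale and 17 did not pass, and the median was 0.78. This share is near the 10.4% of all tested genes that were higher. Above 0 were 17 of the 20, against 47.1% of all tested genes, and unadjusted 14 were higher and 1 lower. On total counts 0 passed as higher, also unadjusted, and 3 as lower (median -0.0071), where 49.6% of all tested genes were lower. Ubb, a polyubiquitin gene, went from 1685 ± 628 to 3493 ± 962 CPM (SD, n = 4), which was 1.05 on the log2 scale (edgeR, adjusted p = 0.0443), and Maea and Ube2h rose by 0.29 (adjusted p = 0.0436) and 0.39 (adjusted p = 0.0458). Ube2l6, with the most reads, was at 3691 ± 1524 and 7545 ± 2897 CPM (adjusted p = 0.0865). With DESeq2 9 passed as higher and with limma-voom 4. Leaving out 1 mouse gave 0 (control mouse 1, 2 or 3, or stress mouse 2), 2 (stress mouse 1 or 3), 8 (stress mouse 4) or 11 (control mouse 4).

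Of 36 tested genes of red-cell structure and heme synthesis, 4 rose on the TMM scale, a share near the 10.4% of all tested genes, and the median was 0.89. Aqp1, the red-cell water channel, rose by 0.91 on the log2 scale (edgeR, adjusted p = 0.00655), Gypc by 0.49 (adjusted p = 0.0284) and Urod, an enzyme of heme synthesis, by 0.93 (adjusted p = 0.0401). The fourth was Cat, catalase, with 0.88 (adjusted p = 0.0425). Alas2, the first enzyme of heme synthesis in red cells, had the most reads of the list and was at 16108 ± 6953 and 29026 ± 9094 CPM (SD, n = 4) and did not pass (adjusted p = 0.197). Unadjusted, 25 of the 36 passed, all higher. The count was 10 with DESeq2 and 16 with limma-voom, and without 1 mouse it ran from 1 (control mouse 2 or 3, or stress mouse 1) over 2 (stress mouse 2 or 3) and 9 (stress mouse 4) to 22 (control mouse 4). On total counts 0 of the 36 passed as higher and 4 as lower, where 49.6% of all tested genes were lower.

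**Figure D5:**
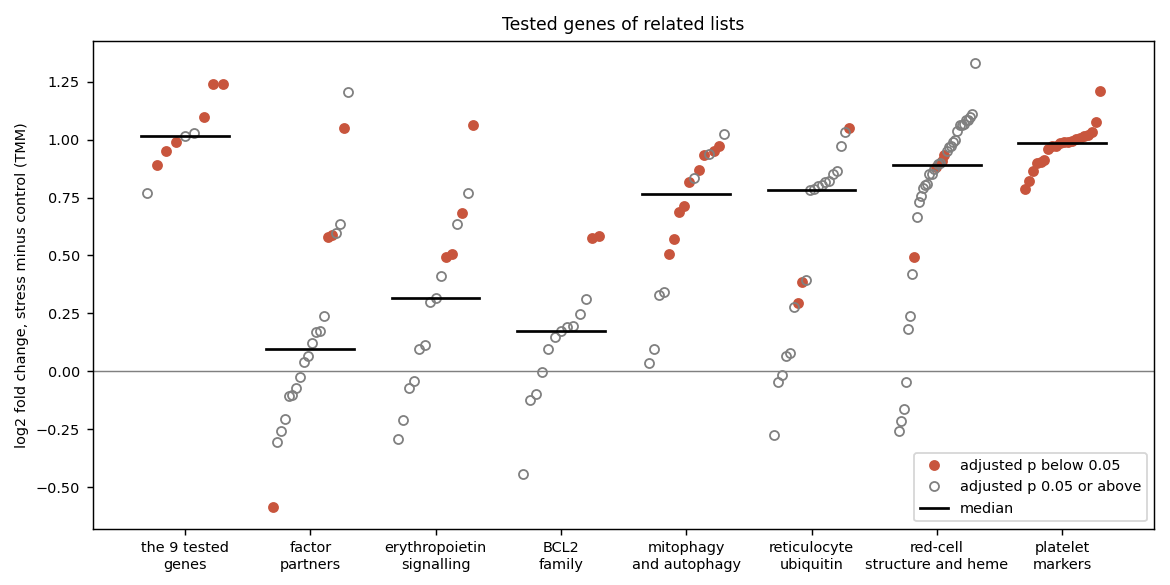
Log2 fold change on the TMM scale (vertical axis) of each tested gene of the 9 members, 6 related lists and the platelet markers (horizontal axis), with filled points for an adjusted p below 0.05 and black bars for medians. The members and the platelet markers have medians of 1.01 and 0.99, and the partners of the factors 0.09.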

How the data were processed

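RNA of flash-frozen whole blood was made into libraries with the TruSeq kit. The authors deposited 1 table of raw read counts per gene symbol with 1 column per mouse, and 0 columns were left unmapped. The submitters' processing notes name HISAT2, featureCounts and mm10. Versions, annotation and strand setting are not given in the sources used here, so near-identical copies may share counts. Between 25978683 and 39014775 counts were present per library. The 95% intervals of fold changes come from the edgeR fit and include the spread between mice.

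Genes reaching 10 counts in 4 or more libraries (11718 of 21878) were tested with the robust quasi-likelihood test of edgeR 4.0.16 (R 4.3.3, TMM scaling, Benjamini-Hochberg adjustment over all tested genes). On simulated data with 11573 genes, 75 of 100 genes set to a log2 fold change of 1 and 94 of 99 set to 2 were recovered, with 14 of 11374 unchanged genes called. The simulated counts were drawn with the TMM library sizes, so they cannot show which scale is right. The red-cell and platelet scales divide each library by the median, over the listed genes, of its count relative to the mean of the 8 libraries. Sums of markers were compared by exact permutation over all 70 assignments.

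The alternatives were DESeq2 1.42.0, limma-voom (limma 3.58.1), other scalings, other count filters, a fit without haemoglobin genes, the replicate number as a block, and a fit without each mouse in turn. The 10 genes and all lists were chosen with earlier results of these data known. Named genes were the 10, for each list the 3 smallest p-values per direction among genes past an adjusted p of 0.05, its gene with the most reads, and the nearest genes by correlation. Kit, Cd34, Tfrc, Epo, Tfr2, Bnip3, Socs3, Cat, Hbb-y and Hbb-bh2 were named after their values were seen. Coordinates are from GENCODE M21, and promoters from RefSeq, where Nfe2, Bnip3l and Ube2o had no entry used. Proteins were not used here.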

Additional observations from a re-analysis of the deposited data

Results flagged for a closer look

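In the stress group, Gfi1b in mouse 3 stood apart from the other 3 mice at 7.59 CPM on the TMM scale, where they lay between 4.22 and 4.29 CPM. The gap to the nearest mouse was 0.980 of the whole range of the group. This was 1 of 22 groups of 4 checked, and chance alone marks about 5% of such groups. The same library had 100 Gfi1b counts, within the 91 to 134 of the other stress libraries, and on total counts its 3.85 CPM lay inside their range of 3.07 to 4.72 CPM.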

How the results depend on the processing

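With the study's thresholds 1 of the 9 tested members passed on the TMM scale, against 3 with DESeq2, 3 with limma-voom, 2 with RLE size factors, 2 with a minimum of 50 counts (which dropped Epor), and 0 on total counts, the red-cell scale or the platelet scale. Leaving out 1 mouse gave 0 to 5, with 0 without control mouse 2 or 3, 2 without stress mouse 2 and 5 without control mouse 4. At an adjusted p below 0.05 the 6 members became 0 on total counts, 0 on the red-cell scale and 0 on the platelet scale, and 5 to 8 without 1 mouse. The count stayed at 6 with the haemoglobin genes removed before TMM scaling. The median log2 fold change of the members, 1.01, was 0.25 on total counts, -0.075 on the red-cell scale, 0.077 on the platelet scale and 0.87 to 1.17 without 1 mouse. The platelet scale was chosen after seeing the data. Negative on the red-cell scale were Gata1 (-0.18), Tal1 (-0.10), Nfe2 (-0.075), Gfi1b (-0.080) and Bnip3l (-0.21), and on the platelet scale Gata1 (-0.10), Tal1 (-0.027) and Bnip3l (-0.18).

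Of all tested genes 200 passed the study's thresholds (198 higher, 2 lower), with DESeq2 319 (307 and 12), on total counts 743 (14 and 729), on the red-cell scale 3, on the platelet scale 6270 (16 and 6254) and without 1 mouse 77 (control mouse 2) to 345 (control mouse 4), with 96 without control mouse 3. At an adjusted p below 0.05 the 1655 genes (1223 higher, 432 lower) became 5863 (52 and 5811) on total counts, 5843 (9 and 5834) on the red-cell scale, 9379 (47 and 9332) on the platelet scale and 698 to 2057 without 1 mouse (698 without control mouse 2, 793 without control mouse 3). The difference in haemoglobin share, 9.92 percentage points, was 7.55 to 12.3 without 1 mouse.

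Mice with the same number showed correlations of 0.06, 0.00, -0.04 and -0.16 between their deviations from the group means. Not every mouse correlated best with its own number. With 4 mice per group these values cannot show whether same-numbered mice were paired, by litter or otherwise. With the replicate number as a block 2 members passed the study's thresholds, and Bcl2l1 did not pass an adjusted p of 0.05 (edgeR, adjusted p = 0.0893), while 3 mitophagy, 0 ubiquitin and 2 red-cell structure and heme genes did. Bcl2l1 also missed it with no filter on low counts (adjusted p = 0.0527). Ube2o passed without control mouse 4 (adjusted p = 0.0291) or stress mouse 4 (adjusted p = 0.0370), and Trim58 without control mouse 4 (adjusted p = 0.0319). Over 161 values of single members under these alternatives, 129 kept their direction and their side of an adjusted p of 0.05, and apart from the total-count, red-cell and platelet scales 122 of 134 did, with none reversed. Klf1 was not tested and had no such values. Depth limits Epor and Klf1 most, with at most 64 and 21 counts per library.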

Other observations

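Lists that mark other blood cells held their own genes that passed on the TMM scale, and the same libraries gave them. Clec4d and S100a8 of the neutrophil list went from 8.20 ± 1.53 to 24.4 ± 4.59 CPM and from 20.6 ± 3.90 to 57.6 ± 12.5 CPM (SD, n = 4), and Lyz2 of the monocyte list from 273 ± 38.0 to 679 ± 141 CPM. These were log2 fold changes of 1.58, 1.49 and 1.32, and they were 0.85, 0.72 and 0.54 on total counts. The monocyte list as a whole had 6 genes above 0 and 6 below on total counts. Among B-cell genes Cr2 went from 50.5 ± 6.82 to 29.1 ± 5.40 CPM, a log2 fold change of -0.79 with TMM and -1.57 on total counts. In the list for eosinophils, basophils and mast cells, 8 genes could be tested. With TMM Gata2 (also a partner of the factors above) and Siglecf passed as higher and Il5ra as lower. Il5ra was at 6.02 ± 0.193 and 3.41 ± 0.690 CPM. Of all tested genes 10.4% passed as higher and 3.69% as lower with TMM. On total counts 0 of the 8 passed as higher and 3 as lower, where 49.6% of all tested genes were lower.

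The haemoglobin genes themselves had 2 of 7 tested members that passed as higher with TMM and the same count on total counts. Of all tested genes 10.4% passed as higher with TMM and 0.444% on total counts. The median log2 fold change was 1.06 with TMM and 0.21 on total counts. Hbb-y, an embryonic globin gene, had 8 to 45 counts per library and Hbb-bh2 had 0 in all.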
